A study of Mus musculus with 23 samples.

Results

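The Hox genes were followed across tumors of 5 syngeneic mouse models and across cancer-associated fibroblasts (CAFs) sorted from tumors of 4 of these models. Members were all gene symbols of the form Hox, a cluster letter from a to d and a paralog number, and 39 of the 24940 gene symbols in the tables met this rule. HoxA held 11 of them, HoxB 10, and HoxC and HoxD 9 each. The tumors were B16 (line B16-F10, melanoma), EO771 (line EO771.LMB, breast carcinoma), LL2 (lung carcinoma), MC38 (colon carcinoma) and Pan02 (pancreatic ductal carcinoma), with 3 tumors of each and 15 in all. All 5 lines derive from C57BL/6 mice and were injected under the skin of the flank of adult female mice of that strain, with no further treatment, and fragments of whole tumors were taken at the endpoint, ulcerated tumors having been left out by the study. CAFs were FAP+ cells sorted from the CD45- fraction of EO771, LL2, MC38 and Pan02 tumors, with 2 libraries per model from separate rounds of sorting and 8 in all. No B16 CAF library was analysed here. Each model is 1 cell line, so a difference between models is one between these lines and what grew around them, and p-values measure the spread between 3 tumors, or between 2 rounds of sorting, of a model.

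Hox genes encode homeodomain transcription factors that lie in 4 clusters, on different chromosomes. Within a cluster, the order along the chromosome follows the order along the body axis in which the genes are active in the embryo, from low paralog numbers at the head end to high numbers at the tail end and in the distal limb. Genes with the same number in different clusters are paralogs that arose by duplication of an ancestral cluster. Adult fibroblasts are known to keep much of the Hox pattern of the site they came from, and many cancers carry the pattern of their tissue of origin or an altered one.

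In mm10, the counted transcripts lie on chromosome 6 for HoxA, 11 for HoxB, 15 for HoxC and 2 for HoxD, with HoxA on the minus strand and the other clusters on the plus strand. Levels are given as RPKM (reads scaled by transcript length and by library depth), computed here for tumors from the deposited counts and TMM library sizes, and as deposited for CAFs. Because the library type kept no strand, reads from antisense or overlapping transcripts cannot be told apart from those of a Hox gene. Annotated exons of other genes covered 64.5% of the exon bases of Hoxd3, 52.9% of Hoxb3, 45.1% of Hoxd4, 40.0% of Hoxb2, 35.0% of Hoxa11, 23.7% of Hoxa3, 15.8% of Hoxa4, 15% of Hoxa2 and 10.8% of Hoxd11, and a smaller share of any other member. For Hoxd3 the overlap includes Hoxd4, and for Hoxa11 it is the antisense gene Hoxa11os. The levels of these members are therefore uncertain, by an amount that the share of bases does not give.

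The summed counts of a tumor library ran from 10035180 to 21946495 and those recovered for a CAF library from 6223439.5 (MC38 CAF library 2) to 19537423. A floor of 3 counts in a library corresponded to 0.0598 to 0.351 RPKM in tumors and 0.0394 to 0.385 RPKM in CAFs, depending on transcript length and depth, and covers counting error only. The label of the CAF libraries was checked against marker lists. All 10 fibroblast markers reached a mean of 1 RPKM in CAFs of every model, among them Fap at 6.46 to 7.16 RPKM in EO771, 4.29 to 11.4 in MC38, 9.24 to 9.91 in LL2 and 1.89 to 3.28 in Pan02 CAFs. Ptprc, which encodes CD45, was at 0.902 to 0.947 RPKM in EO771 CAFs and at most 0.092 in the other CAFs. The CAF libraries also held genes taken as marks of the cancer cells of their own model. Their levels ranged from far below those of the tumors to equal to them. These genes were chosen from earlier results of these data. No sample of cancer cells alone was analysed to show which cells express them. Tex13b reached 34.6 to 54.7 RPKM in MC38 CAFs and 32.8 to 43.4 in MC38 tumors, Dkk2 133 to 156 in LL2 CAFs and 90.1 to 154 in LL2 tumors, Hand1 46.5 to 49.3 in EO771 CAFs and 78.1 to 94.8 in EO771 tumors, and Ehf 23.03 to 26.02 in Pan02 CAFs and 6.31 to 41.8 in Pan02 tumors. The other genes of these lists were lower in CAFs, with Elavl2 at 0.123 to 0.762 RPKM in MC38 CAFs and 3.11 to 4.1 in MC38 tumors, Nefl at 1.73 to 1.75 in LL2 CAFs and 7.54 to 9.95 in LL2 tumors, and Sohlh2 at 9.22 to 9.62 in EO771 CAFs and 12.2 to 13.6 in EO771 tumors. In Pan02, Chil4 was at 23.1 to 45.5 RPKM in CAFs and 52.97 to 1594 in tumors, and Slurp1 at 17.2 to 36.7 and 49.5 to 129. Summed epithelial markers ran from 840 to 1125 RPKM in Pan02 CAFs and from 494 to 501 in EO771 CAFs. In Pan02 the summed fibroblast list was lower in CAFs (2485 to 4085 RPKM) than in tumors (8793 to 9655 RPKM), whereas in EO771 and LL2 every CAF library stood above every tumor. In MC38 the ranges overlapped, with 7031 RPKM in CAF library 1 and 1619 in CAF library 2 against 630 to 2585 in tumors. The part of cancer cell RNA in the Hox levels of the CAF libraries was not tested.

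**Figure D1:**
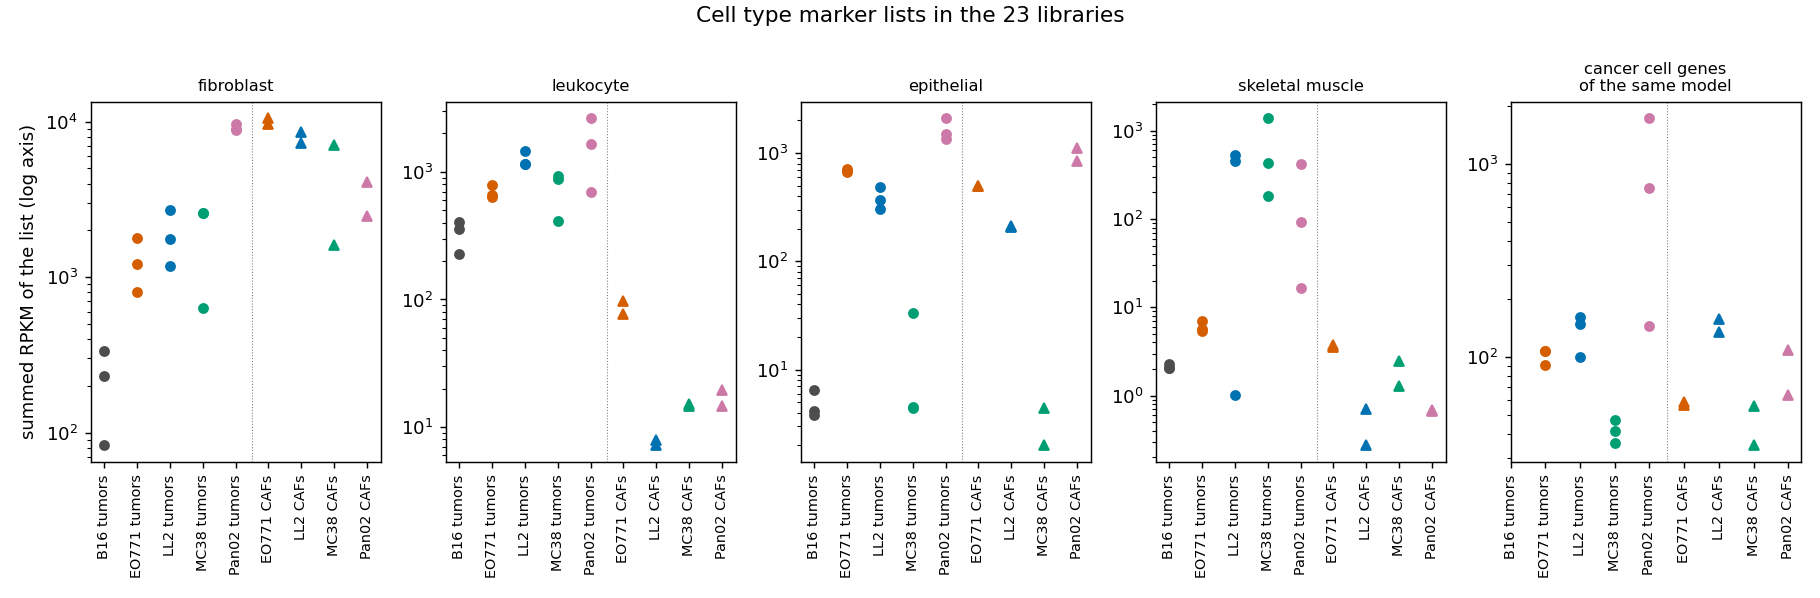
Summed RPKM (log axis) of 4 cell type marker lists and of genes taken as cancer cell genes of the same model, chosen from earlier results of these data. Tumors are circles and CAF libraries triangles, with 1 point per library (no such cancer cell list was used for B16). The leukocyte list is lower in every CAF library than in every tumor of its model, while the genes so taken in MC38 and LL2 reach the levels of the tumors.

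Hox genes were on in every group, but no 2 groups carried the same set. At a mean of 1 RPKM or more, 13 members were detected in B16 tumors, 11 in EO771, 28 in MC38, 21 in LL2 and 21 in Pan02 tumors, and 17 in EO771, 29 in MC38, 25 in LL2 and 16 in Pan02 CAFs. Hoxa10 and Hoxb6 were the members at this level in all 9 groups. In CAFs of all 4 models, 9 members reached it, namely Hoxa5, Hoxa10, Hoxb2, Hoxb3, Hoxb6, Hoxc6, Hoxc8, Hoxc9 and Hoxc10. At the other end, 7 members stayed below 1 RPKM in all 9 groups: Hoxb1, Hoxb9, Hoxc12, Hoxc13, Hoxd1, Hoxd11 and Hoxd12. Hoxb9 was the highest of these in tumors, at 0.178 to 1.01 RPKM over the 15 tumors, and Hoxc12 in CAFs, at 0.721 and 0.771 RPKM in the 2 MC38 CAF libraries.

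**Figure D2:**
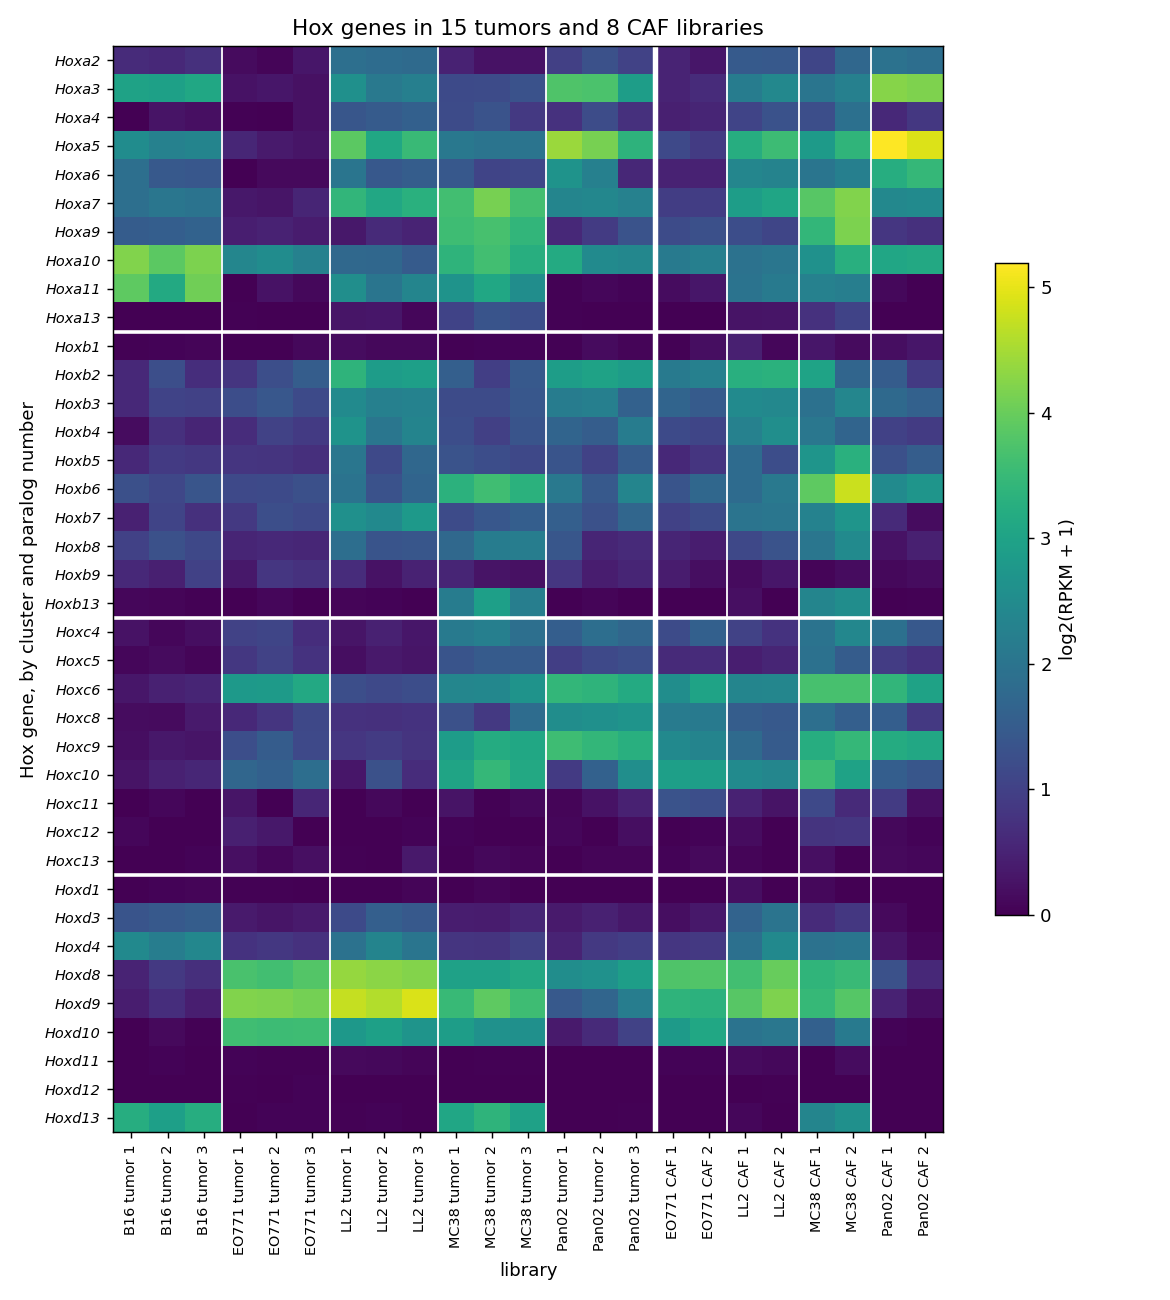
Level of Hox genes, as log2(RPKM + 1), in 15 tumors and 8 CAF libraries, with genes in rows by cluster and paralog number and libraries in columns by model. B16 tumors are dark over HoxC and over Hoxd8 to Hoxd10, EO771 tumors and CAFs over most of HoxA, and Hoxb13 is bright in MC38 tumors and MC38 CAFs alone.

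The summed level of the 39 members ran from 64.6 to 78.1 RPKM in B16 tumors, from 66.3 to 70.1 in EO771, from 113.8 to 137.4 in LL2, from 126.7 to 150.7 in MC38 and from 93.3 to 112.7 in Pan02 tumors. HoxA made up 64.4 to 71.0% of this sum in B16 tumors but 8.17 to 9.07% in EO771 tumors, where HoxD made up 58.7 to 62.7%. HoxC made up 1.42 to 2.17% in B16 and 2.52 to 4.35% in LL2 tumors and 26.1 to 33.6% in Pan02 tumors. The ranges of these shares did not overlap between the models compared in these sentences. In whole tumors, fewer cells of a type and less RNA per cell cannot be told apart.

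**Figure D3:**
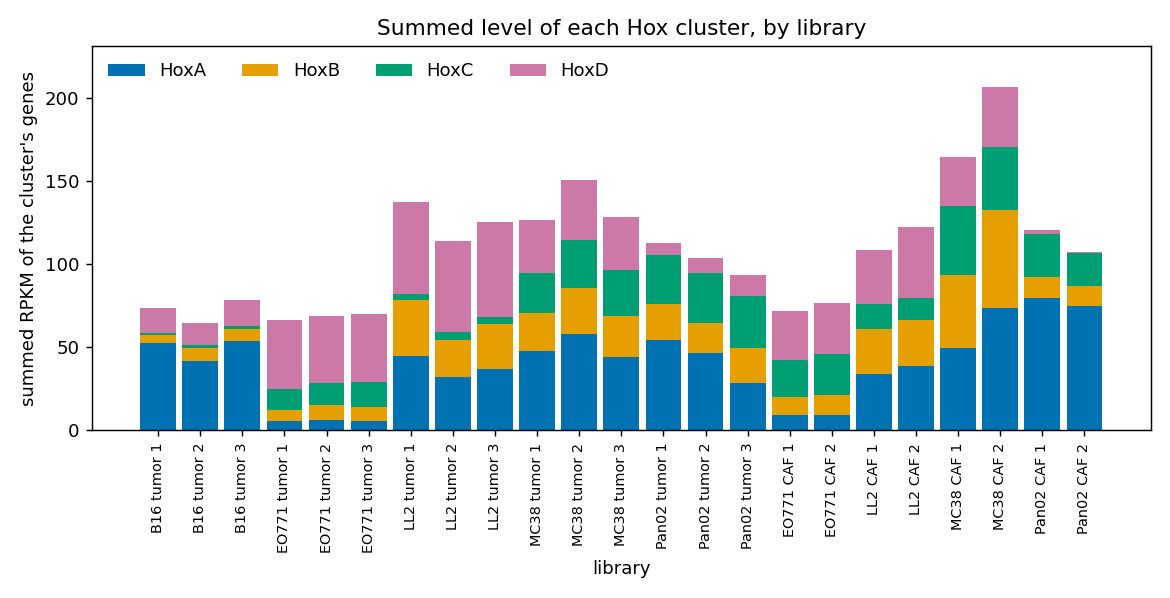
Summed RPKM of the genes of each Hox cluster in the 23 libraries, stacked by cluster. HoxD is the largest share in the 3 EO771 tumors and nearly absent from the 2 Pan02 CAF libraries, whose HoxA sum is 74.8 to 79.6 RPKM.

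To ask which Hox genes set the tumor models apart, the 5 models were compared in 1 fit over 15732 genes (edgeR quasi-likelihood test, Benjamini-Hochberg adjustment). Of the 39 members, 32 passed the filter on low counts, and for 31 of these the test over all 5 models passed the threshold of 0.05. Hoxb9 was the one that did not. Of all genes tested, 91.1% differed among the models, so the share of Hox genes is close to the background. Hoxb1, Hoxc11, Hoxc12, Hoxc13, Hoxd1, Hoxd11 and Hoxd12 were not tested. Each model was then compared with the mean of the other 4, and a gene was called where its adjusted p fell under 0.05 and its level differed by 1 or more on the log2 scale. In B16 tumors, 7 of the 32 tested members were called higher and 16 lower, against 13.1% and 19.6% of all genes tested. In EO771 tumors, 4 were higher and 15 lower (background 9.71% and 13.7%), and in LL2 tumors 17 were higher and 8 lower (background 8.51% and 8.3%). In MC38 tumors, 16 were higher and 3 lower (background 11.2% and 8.23%), and in Pan02 tumors 12 were higher and 7 lower (background 18.8% and 7.92%). Where a group has 0 to 3 counts of a gene, as for the group 13 genes, the fitted size of a change depends on the prior count that edgeR adds, and levels are the better guide to its size. Hoxa13 and Hoxb13 passed the filter through the 3 MC38 tumors alone, and Hoxd13 through MC38 and B16 alone. These members thus had to differ, and their levels are given with no test. The counts above still hold them. All of these are among the members higher in MC38. Hoxd13 is counted higher in B16 and lower in EO771, LL2 and Pan02. Hoxa13 is counted lower in B16 and higher in LL2, and Hoxb13 lower in Pan02.

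Within HoxA, Hoxa3, Hoxa5, Hoxa6 and Hoxa7 set EO771 apart from the other 4 models. Hoxa3, a regulator of thymus, parathyroid and pharyngeal arch development, was at 6.91, 6.79 and 7.51 RPKM in the 3 B16 tumors, 5.1, 3.29 and 3.73 in LL2, 12.6, 12.3 and 6.45 in Pan02 and 1.23, 1.28 and 1.47 in MC38, but 0.188, 0.251 and 0.172 in EO771. The EO771 values lay below all others, and the MC38 values below those of B16, LL2 and Pan02. Against the mean of the other models, the log2 fold change of Hoxa3 was -4.41 ± 0.29 (SE), adjusted p = 6.19e-08 in EO771 and 2.63 ± 0.18 (SE), adjusted p = 4.6e-08 in Pan02. It was 1.93 ± 0.18 (SE), adjusted p = 6.71e-07 in B16 and -1.08 ± 0.22 (SE), adjusted p = 0.00112 in MC38, where it missed the fold threshold with total-count scaling (-0.93). Hoxa5, which is needed for lung and airway development, ranged from 9.26 to 20.2 RPKM in Pan02 and 7.49 to 13.7 in LL2 to 0.233 to 0.481 in EO771 tumors. Hoxa6 had the largest fall of the members called in EO771 tumors, where it was at 0, 0.0915 and 0.0939 RPKM (log2 fold change -5.12 ± 0.89 (SE), adjusted p = 0.000285), and the 3 Pan02 tumors spread from 0.485 to 5.37 RPKM. Hoxa2, Hoxa4, Hoxa7, Hoxa9 and Hoxa11 were also called lower in EO771 tumors, and Hoxa10 was not. The EO771 values overlapped those of MC38 for Hoxa2, B16 for Hoxa4, LL2 for Hoxa9 and Pan02 for Hoxa11.

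Hoxa10 and Hoxa11, which pattern the limb and the uterus, followed different courses. Hoxa10 was on in all 15 tumors and highest in B16, at 17.4, 13.8 and 17.04 RPKM (log2 fold change 1.76 ± 0.16 (SE), adjusted p = 4.28e-07), with 8.55 to 11.2 RPKM in MC38, 4.3 to 8.02 in Pan02, 3.86 to 4.72 in EO771 and 1.83 to 2.38 in LL2 tumors. Hoxa11 was at 13.95, 7.91 and 15.7 RPKM in B16, 4.94, 3.04 and 4.15 in LL2 and 5.32, 7.54 and 4.86 in MC38 tumors. In EO771 (0, 0.186 and 0.0763 RPKM) and Pan02 (0.0214, 0.0591 and 0.0394 RPKM) it was near 0, so the gene split the models into groups that did not overlap. Its log2 fold change was 4.53 ± 0.31 (SE), adjusted p = 2.56e-08 in B16, -4.61 ± 0.61 (SE), adjusted p = 2.93e-05 in EO771 and -5.59 ± 0.61 (SE), adjusted p = 3.98e-06 in Pan02. Hoxa11os, which overlaps it on the other strand, was high and low in the same models, at 6.8 to 11.5 RPKM in B16 and at most 0.0926 in EO771 and Pan02 tumors.

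The hindbrain and branchial arch gene Hoxa2 and Hoxa4 of the same cluster were highest in LL2, and Hoxa9 in MC38. Hoxa2 was at 2.74, 2.55 and 2.49 RPKM in LL2 tumors (log2 fold change 2.70 ± 0.25 (SE), adjusted p = 2.02e-06) and at 0.408, 0.196 and 0.193 in MC38 (log2 fold change -1.36 ± 0.34 (SE), adjusted p = 0.00405). Hoxa4 was at 1.63, 1.83 and 2.01 RPKM in LL2 tumors (log2 fold change 2.52 ± 0.40 (SE), adjusted p = 0.000205), values that lay above every other tumor. Hoxa9, a driver of some leukemias, was at 10.96, 11.8 and 9.67 RPKM in MC38 tumors and at 1.86, 1.95 and 2.11 in B16, the next highest model. It was 0.253, 0.526 and 0.427 RPKM in LL2, where its log2 fold change was -2.02 ± 0.30 (SE), adjusted p = 0.000129. Hoxa7 had its highest values in the same model, at 11.3 to 16.4 RPKM in MC38 against 7.69 to 9.68 in LL2 and 0.218 to 0.448 in EO771 tumors.

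Within HoxB, the anterior genes were highest in LL2 and Pan02 and the posterior Hoxb13 was on in MC38 only. Hoxb2, a hindbrain gene, reached 6.32 to 9.37 RPKM in LL2 and 6.28 to 6.91 in Pan02 against 0.514 to 1.36 in B16, 0.75 to 1.9 in EO771 and 0.963 to 1.96 in MC38 tumors. Hoxb3, Hoxb4, Hoxb5 and Hoxb7 were called higher in LL2 along with Hoxb2, with ranges of 3.81 to 4.61, 3.09 to 5.38, 1.23 to 3.12 and 4.56 to 5.99 RPKM, although Hoxb5 missed the fold threshold without LL2 tumor 1 (0.79). Hoxb6 was on in all tumors and highest in MC38, at 9.12, 11.2 and 8.9 RPKM, above the 1.16 to 4.11 RPKM of the other 12 tumors (log2 fold change 2.37 ± 0.21 (SE), adjusted p = 1.08e-06). Hoxb8 ran from 0.451 to 3.59 RPKM over all tumors and was called higher in MC38 and lower in EO771.

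HoxC was nearly silent in B16 tumors and low in LL2. The summed fibroblast list was also lowest in B16 tumors (82.6 to 333 RPKM) and highest in Pan02 tumors, where HoxC was highest as a share, and its part in these levels was not tested. None of the 9 HoxC members reached a mean of 1 RPKM in B16, and 6 of them, Hoxc4 to Hoxc6 and Hoxc8 to Hoxc10, were called lower there. Hoxc9 was at 0.143, 0.254 and 0.233 RPKM in B16 and 0.773, 0.882 and 0.712 in LL2, 1.39, 1.86 and 1.22 in EO771, 6.29, 8.13 and 7.53 in MC38 and 10.97, 9.82 and 8.76 in Pan02 tumors. The 5 models did not overlap for this gene, which was highest in Pan02 (log2 fold change 3.05 ± 0.14 (SE), adjusted p = 1.78e-09). Hoxc8, which like Hoxc6 helps to set motor neuron pools of the forelimb, was at 4.8, 5.09 and 5.41 RPKM in Pan02 (log2 fold change 2.97 ± 0.27 (SE), adjusted p = 8.64e-07) and at 0.118 to 2.58 RPKM in the other 12 tumors. Hoxc6 was at 6.02, 6.07 and 7.76 RPKM in EO771 (log2 fold change 1.63 ± 0.15 (SE), adjusted p = 1e-06), 8.03 to 9.83 in Pan02 and 4.21 to 5.39 in MC38, against 0.247 to 0.455 in B16 tumors. Hoxc10, a gene of the lumbar region and hindlimb, was highest in MC38 at 7.18 to 9.94 RPKM and spread widely within Pan02, from 0.832 to 4.94 RPKM. Hoxc4 and Hoxc5 peaked in MC38, at 2.73 to 3.7 and 1.54 to 1.83 RPKM, while Hoxc11 stayed below 0.5 RPKM in all 15 tumors.

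HoxD carried wide contrasts between models, in 2 blocks that lie on either side of the silent Hoxd11 and Hoxd12. The first is Hoxd8, Hoxd9 and Hoxd10, genes of the trunk and limb, which stood high in EO771, LL2 and MC38 tumors and near 0 in B16. The second is Hoxd13. The promoters of these genes, and that of Hoxa13, are shown because the levels of these genes set models apart, Hoxd8 to Hoxd10 as one block, Hoxd13 in B16 and MC38, and Hoxa13 in MC38. Each line gives the 250 bases before the start in RefSeq (GRCm38.p6), 5′ to 3′ on the gene's strand, with the CCAAT box (CCAAT, or ATTGG on the other strand) in capitals.
Hoxd8 (chr2:74704365-74704614, plus strand): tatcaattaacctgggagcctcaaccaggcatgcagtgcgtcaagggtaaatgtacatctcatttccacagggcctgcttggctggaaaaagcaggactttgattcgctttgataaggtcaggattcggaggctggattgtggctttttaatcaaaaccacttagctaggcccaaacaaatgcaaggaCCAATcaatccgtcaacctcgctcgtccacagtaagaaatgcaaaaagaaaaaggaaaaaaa
Hoxd9 (chr2:74697513-74697762, plus strand): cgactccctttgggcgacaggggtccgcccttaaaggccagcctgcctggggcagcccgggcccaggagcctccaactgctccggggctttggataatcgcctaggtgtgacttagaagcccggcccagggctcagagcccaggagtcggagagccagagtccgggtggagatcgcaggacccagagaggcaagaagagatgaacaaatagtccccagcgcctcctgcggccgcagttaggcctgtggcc
Hoxd10 (chr2:74691641-74691890, plus strand): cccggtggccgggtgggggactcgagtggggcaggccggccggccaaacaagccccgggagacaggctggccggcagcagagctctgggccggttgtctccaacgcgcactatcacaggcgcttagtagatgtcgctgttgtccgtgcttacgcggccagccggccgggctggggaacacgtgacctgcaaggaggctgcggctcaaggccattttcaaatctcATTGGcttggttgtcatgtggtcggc
Hoxd13 (chr2:74667975-74668224, plus strand): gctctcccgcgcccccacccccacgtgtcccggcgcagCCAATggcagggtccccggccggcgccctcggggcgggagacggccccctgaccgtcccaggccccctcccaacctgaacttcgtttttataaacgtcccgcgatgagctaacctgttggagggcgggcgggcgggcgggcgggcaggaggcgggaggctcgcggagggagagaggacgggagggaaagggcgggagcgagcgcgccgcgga
Hoxa13 (chr6:52260881-52261130, minus strand): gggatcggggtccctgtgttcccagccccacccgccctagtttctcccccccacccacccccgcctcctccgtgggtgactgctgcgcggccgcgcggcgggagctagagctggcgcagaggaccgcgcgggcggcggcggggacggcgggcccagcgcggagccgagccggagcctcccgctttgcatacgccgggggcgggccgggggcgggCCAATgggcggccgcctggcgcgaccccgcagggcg
The RefSeq starts used for Hoxd8 and Hoxd13 lie 874 and 85 bases from those of the counted transcripts, and the others coincide. A CCAAT box was found in 33.8% of the 32851 promoters in the table and in 58.3% of the 24 promoters that belong to Hox genes (22 of the 39 symbols had one). Of the 5 shown, that of Hoxd9 held none and the other 4 held 1 each. The promoters of Hoxa13 and Hoxd13 held 35 and 31 CpG dinucleotides, more than those of Hoxd10 (20), Hoxd9 (13) and Hoxd8 (6), where the median over all promoters was 6 and over Hox promoters 12.5. These counts describe the sequence and say nothing of what binds there.

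Hoxd9 was at 25.7, 23.3 and 29.03 RPKM in LL2, 17.4, 17.2 and 16.1 in EO771, 10.2, 13.9 and 10.9 in MC38 and 1.74, 2.24 and 3.59 in Pan02 tumors, and at 0.328, 0.593 and 0.345 RPKM in B16. The models did not overlap and ranked in that order. Its log2 fold change was 2.76 ± 0.16 (SE), adjusted p = 2.97e-08 in LL2, 1.98 ± 0.17 (SE), adjusted p = 4.92e-07 in EO771 and -4.62 ± 0.27 (SE), adjusted p = 6.57e-09 in B16. Hoxd10, which has a role in lumbar motor neurons, was led by EO771 instead, at 11.1, 10.9 and 10.95 RPKM (log2 fold change 3.43 ± 0.26 (SE), adjusted p = 1.69e-07), with 5.43 to 6.72 in LL2 and 5.12 to 6.38 in MC38. It was at 0.291, 0.53 and 1.04 RPKM in Pan02 and 0, 0.101 and 0.027 in B16 tumors (log2 fold change in B16 -6.26 ± 0.51 (SE), adjusted p = 1.57e-07). Hoxd8 was at 17.8 to 19.7 RPKM in LL2, 11.3 to 12.97 in EO771, 6.8 to 7.75 in MC38, 4.83 to 6.53 in Pan02 and 0.432 to 0.806 in B16 tumors. Thus of these 3 genes Pan02 kept Hoxd8 at several RPKM, with Hoxd10 at or below about 1. The anterior Hoxd3 and Hoxd4 ran differently, at 1.56 to 1.89 and 3.59 to 4.52 RPKM in B16 and 1.25 to 1.96 and 2.89 to 4.1 RPKM in LL2, and at no more than 0.98 RPKM in tumors of the other 3 models.

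The group 13 genes, which act at the tail end of the axis, in the hindgut and urogenital tract and in the digits, were on in MC38. Hoxa13 was at 1.08, 1.55 and 1.37 RPKM in the 3 MC38 tumors, at 0.221, 0.243 and 0.0583 in LL2, and at no more than 0.0247 in the rest. All 3 B16 tumors were at 0 counts, and the MC38 mean was at least 4.85-fold higher than the floor of 3 counts per library there. Hoxb13, an axial and prostate gene, was at 3.54, 6.62 and 3.69 RPKM in MC38 tumors and at most 0.072 RPKM in the other 12. Hoxd13 was on in a second model as well. It was at 7.48, 9.42 and 6.88 RPKM in MC38 and 8.36, 6.62 and 8.38 RPKM in B16 tumors, 2 models whose ranges overlapped, and at most 0.0421 RPKM in the other 9 tumors. Hoxc13 stayed at or below 0.27 RPKM in all tumors. Summed skeletal muscle markers were at 181 to 1383 RPKM in MC38 tumors, 1.03 to 532 in LL2, 16.7 to 420 in Pan02, 5.34 to 7.07 in EO771, 2.07 to 2.26 in B16 tumors and 1.29 to 2.46 in MC38 CAFs, and their part in the levels of the group 13 genes was not tested.

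**Figure D4:**
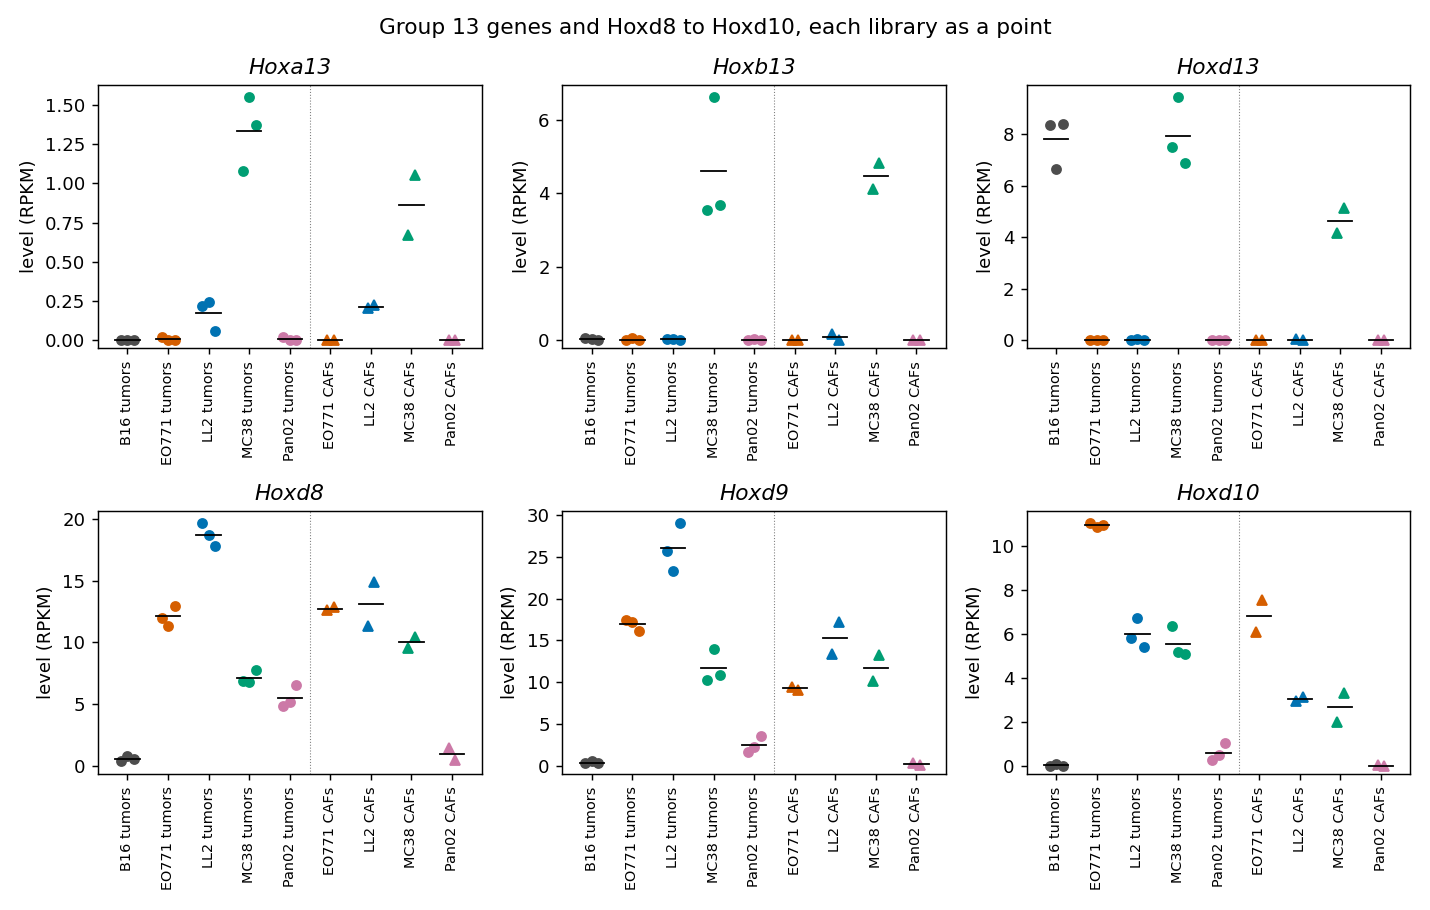
Level (RPKM) of Hoxa13, Hoxb13 and Hoxd13 (top) and of Hoxd8, Hoxd9 and Hoxd10 (bottom) in each library, with tumors as circles, CAFs as triangles and the group mean as a line. MC38 is the only model with all 3 group 13 genes above 0.6 RPKM, in tumors and in CAFs, and Hoxd8 to Hoxd10 are lowest in B16 tumors and Pan02 CAFs.

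CAFs were compared among their 4 models in a separate fit (limma on log2(RPKM + 1), 13598 genes), to ask whether they too differed in Hox genes. They did for 30 of the 31 members tested, Hoxc11 being the exception, where 80.4% of all genes differed. Hoxa13, Hoxb1, Hoxb9, Hoxc12, Hoxc13, Hoxd1, Hoxd11 and Hoxd12 did not pass the filter of 1 RPKM in 2 libraries. Of the 31 tested, 4 passed it through 1 model alone, Hoxb13, Hoxc5 and Hoxd13 through MC38 and Hoxd3 through LL2, so that they had to differ, and their levels are given with no test. Against the mean of the other 3 models, 2 members were called higher and 8 lower in EO771 CAFs, with a background of 8.05% and 7.06% of all genes tested. In LL2 CAFs 7 were higher and 1 lower (background 3.89% and 5.13%). In MC38 CAFs 11 were higher and 0 lower in limma (background 10.9% and 9.87%). In Pan02 CAFs 3 were higher and 9 lower (background 9.73% and 8.41%). The 11 in MC38 include Hoxb13, Hoxc5 and Hoxd13, and the 7 in LL2 include Hoxd3, calls that were fixed by the filter. No member was lower in MC38 CAFs at an unadjusted p under 0.05 either, and 0 were called lower there by edgeR. With reads recovered from the RPKM values and edgeR, 35 members were tested. Of these, 20 were called higher in MC38 CAFs and 3 lower in LL2 CAFs. The share of all genes called was not counted for that fit, so these counts have no background. Without LL2 CAF library 2, the count of members higher in LL2 CAFs fell from 7 to 2. Fold changes are on the log2(RPKM + 1) scale, which understates the change of low genes.

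EO771 CAFs were low in HoxA and high in Hoxd8 and Hoxd10. Hoxa5 was at 1.2 and 0.866 RPKM in the 2 EO771 CAF libraries against 6.12 and 9.48 in MC38, 8.42 and 10.7 in LL2 and 35.6 and 29.3 in Pan02 CAFs. Its log2 fold change was -2.84 ± 0.18 (SE), adjusted p = 4.36e-05 in EO771 and 2.55 ± 0.18 (SE), adjusted p = 3.56e-05 in Pan02, which had the highest level of any Hox gene in the data. Hoxa3 went the same way, at 0.428 and 0.561 RPKM in EO771, 3.03 and 3.83 in MC38, 3.51 and 4.37 in LL2 and 17.9 and 17.2 in Pan02 CAFs (log2 fold change -2.31 ± 0.13 (SE), adjusted p = 2.59e-05 in EO771 and 2.54 ± 0.13 (SE), adjusted p = 7.93e-06 in Pan02). Hoxa6 was 0.403 to 0.416 RPKM in EO771 CAFs and 8.46 to 9.97 in Pan02 CAFs (log2 fold change in Pan02 1.69 ± 0.12 (SE), adjusted p = 3.53e-05). Hoxd10 was high where these were low. It was at 6.08 and 7.54 RPKM in EO771, 2.03 and 3.33 in MC38, 2.94 and 3.17 in LL2 and 0.033 and 0 in Pan02 CAFs. Its log2 fold change in EO771 was 1.66 ± 0.16 (SE), adjusted p = 0.000228. Hoxd8 was at 12.6 and 12.8 RPKM in EO771 CAFs, within the 11.3 to 14.9 RPKM of LL2, and its rise there (1.04 ± 0.19 (SE), adjusted p = 0.00351) is one against the mean of models that include Pan02, at 1.44 and 0.52 RPKM. Without LL2 CAF library 1 or without Pan02 CAF library 2 it fell short of the threshold of 1, and the count of members higher in EO771 CAFs was then 1.

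Pan02 CAFs were those with the least HoxD. No HoxD gene reached a mean of 1 RPKM, and the cluster made up 0.693 to 1.82% of their Hox sum, against 17.5 to 40.7% in the other CAFs. Hoxd9 was at 0.413 and 0.147 RPKM there, 9.45 and 9.1 in EO771, 13.3 and 17.1 in LL2 and 10.1 and 13.2 in MC38 CAFs (log2 fold change -3.33 ± 0.16 (SE), adjusted p = 5.7e-06 in Pan02 and 1.56 ± 0.16 (SE), adjusted p = 0.000436 in LL2). Hoxd8 in Pan02 CAFs gave -2.74 ± 0.19 (SE), adjusted p = 3.26e-05. In LL2 CAFs the anterior Hoxd3, at 2.15 and 3.02 RPKM, stood above the 0.01 to 0.782 RPKM of the other 6 libraries. Hoxb2 was at 8.71 and 8.93 RPKM in LL2, 3.42 and 3.79 in EO771, 1.86 and 0.843 in Pan02 and 7.1 and 2.26 in MC38 CAFs, 2 libraries that lie far apart. Its rise in LL2 CAFs (1.38 ± 0.33 (SE), adjusted p = 0.0166) kept its size without either LL2 library (1.39 and 1.36) but not its call, at an adjusted p of 0.115 and 0.125 in limma, where the library left in LL2 is assumed to vary like the other groups. Hoxc9 was lowest in LL2 CAFs at 2.47 and 1.81 RPKM (log2 fold change -1.33 ± 0.13 (SE), adjusted p = 0.000407) and at 4.08 to 10.1 RPKM in the other 6 libraries.

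MC38 CAFs carried the most Hox genes and the posterior ones among them. Hoxa9 was at 9.91 and 17.00 RPKM in MC38 CAFs and at 0.65 to 1.4 in the other 6 libraries (log2 fold change 2.76 ± 0.19 (SE), adjusted p = 4.17e-05). Hoxd13 was at 4.17 and 5.11 RPKM and Hoxb13 at 4.13 and 4.82 RPKM, where the other 6 libraries were at most 0.071 and 0.162 RPKM. Both EO771 CAF libraries were at 0 for Hoxb13 and Hoxd13, and MC38 CAFs were at least 40.8-fold and 76.8-fold higher than the floor of 3 counts per library there. Hoxa13, not tested, was at 0.669 and 1.05 RPKM in MC38, 0.206 and 0.224 in LL2 and 0 in the other CAFs. Hoxb6 was at 14.1 and 26.4 RPKM in MC38 and 1.55 to 5.49 in the other CAFs, and Hoxb5 at 5.58 and 8.78 against 0.51 to 2.51 RPKM. The 2 MC38 libraries differed from each other. Library 2, the shallowest, had less of the fibroblast list (1619 against 7031 RPKM summed) than library 1. It had more of the genes taken as MC38 cancer cell marks (55.4 against 34.8 RPKM summed). Hoxa5, Hoxa7, Hoxa9, Hoxb5 and Hoxb6 were higher in library 2, while Hoxb2 and Hoxc10 were lower. The part of this difference in cell content was not tested. Without library 2, the members called higher in MC38 CAFs numbered 8 in place of 11, since Hoxb13, Hoxc5 and Hoxd13 no longer passed the filter, Hoxd9 was no longer called and Hoxc10 was.

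Among the 9 members that were on in CAFs of every model, all but Hoxa5 (EO771 library 2), Hoxb2 and Hoxc8 (both Pan02 library 2) were at 1 RPKM or more in each library. Hoxa10 ran from 2.87 to 8.65 RPKM over the 8 libraries and Hoxb3 from 1.8 to 4.62 RPKM. Hoxc6 was at 4.8 and 7.03 RPKM in EO771, 11.8 and 11.8 in MC38, 4.14 and 4.25 in LL2 and 9.65 and 6.93 in Pan02 CAFs. Hoxc8 was at 3.46 and 3.35 RPKM in EO771, 2.7 and 1.99 in MC38, 1.91 and 1.74 in LL2 and 1.95 and 0.815 in Pan02 CAFs. Hoxc10 was at 6.6 and 6.48 RPKM in EO771, 10.8 and 6.92 in MC38, 4.61 and 4.21 in LL2 and 1.94 and 1.61 in Pan02 CAFs. Thus Pan02 CAFs had the least Hoxc10, which was called lower there, and MC38 CAFs the most Hoxc6.

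CAFs and tumors of the same model were then set side by side. Their tables were normalized apart, so levels were not tested across them. In EO771, 11 members were at 1 RPKM or more in both, 6 in CAFs only (Hoxa5, Hoxa9, Hoxb4, Hoxc4, Hoxc8 and Hoxc11) and 0 in tumors only. In LL2, 21 were shared and 4 were found in CAFs only (Hoxa9, Hoxc8, Hoxc9 and Hoxc10). In MC38, 27 were shared, 2 were found in CAFs only (Hoxa2 and Hoxd4) and 1 in tumors only (Hoxa13). In Pan02, 16 were shared, 0 were found in CAFs only and 5 in tumors only (Hoxb4, Hoxb7, Hoxc5, Hoxd8 and Hoxd9). Over the 39 members, Spearman's rho between the levels of CAFs and tumors of 1 model was 0.918 in EO771, 0.879 in MC38, 0.901 in LL2 and 0.910 in Pan02, and between CAFs and tumors of different models it was 0.214 to 0.781. In each of the 4 models the tumor most like the CAFs was that of the same model. These are descriptions over genes, which share clusters, length and library and are not independent replicates. The CAF libraries also hold the genes taken as cancer cell marks of their own model, as given above.

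**Figure D5:**
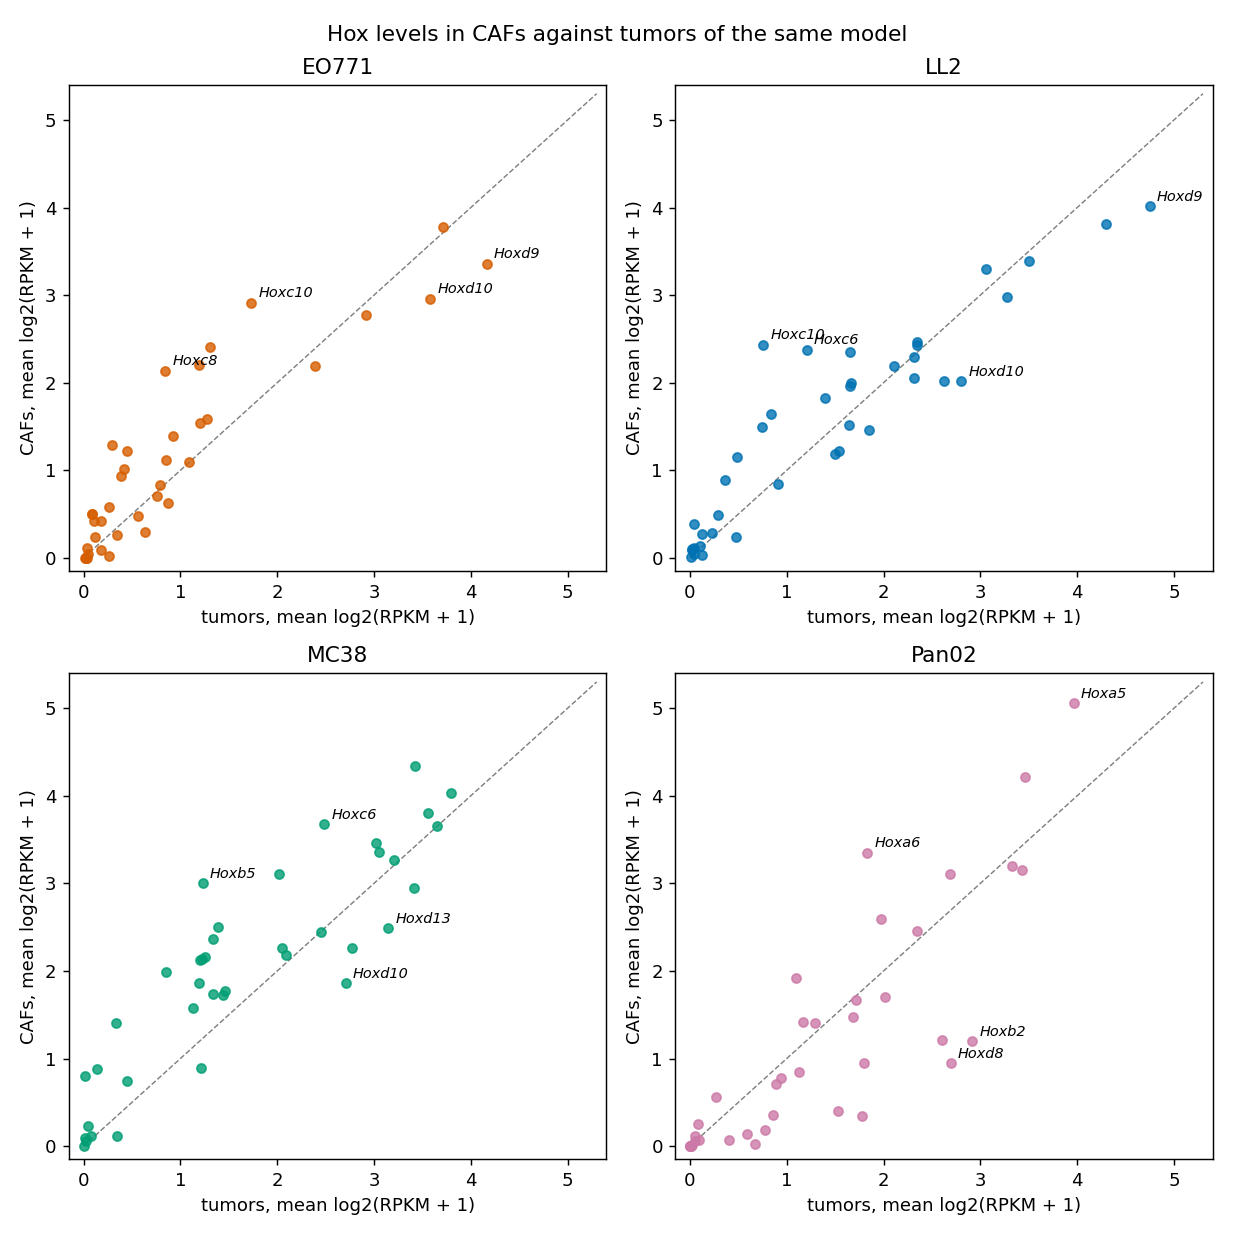
Mean log2(RPKM + 1) of each of the 39 Hox genes in CAFs (vertical axis) against tumors (horizontal axis) of the same model, with the line of equal level dashed and named members labelled. Most points lie near the line in all 4 models, while the HoxD genes Hoxd9 and Hoxd10 fall below it in EO771 and LL2, and Hoxd8 and Hoxb2 in Pan02.

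The calls of the 2 fits, which share no sample, were also set side by side. Of the 41 calls in CAFs, 33 (80.5%) were made in the same direction in tumors of that model, which is 40.2% of the 82 calls in tumors of these 4 models, and 1 was in the opposite direction. Over all genes, 49.6% of the calls in CAFs were made in the same direction in tumors of that model, which is 31.3% of the calls in tumors, and 2.96% in the opposite one. The 33 include Hoxb13, Hoxc5 and Hoxd13 in MC38 and Hoxd3 in LL2, whose calls in CAFs were fixed by the filter. The 80.5% is therefore no test of agreement. The same filter held for all genes, and how many of their calls it fixed was not counted. For Hox genes, the opposite call was that of Hoxb2, higher in Pan02 tumors and lower in Pan02 CAFs, and the one in CAFs was lost without Pan02 CAF library 2 (limma adjusted p = 0.0828). The comparisons differ in that tumors of a model were also set against B16.

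Of the 9 HoxC members, every CAF library lay above every tumor for 5 in EO771, 5 in MC38, 7 in LL2 and 1 in Pan02, and below for 1, 0, 0 and 3. Of the 9 HoxD members, CAFs lay above for 0 in EO771, 3 in MC38, 1 in LL2 and 0 in Pan02, and below for 2, 2, 3 and 5. In the other members of these clusters the ranges overlapped. The share of all genes whose ranges lay apart in this way was not counted. These counts therefore have no background and are not read as a trait of HoxC or HoxD. Hoxd10 was lower in every CAF library than in every tumor of EO771 (mean 6.81 against 10.96 RPKM), LL2 (3.06 against 5.99) and MC38 (2.68 against 5.56), and Hoxd9 was likewise lower in EO771 (9.27 against 16.9) and LL2 (15.2 against 25.99). In Pan02, Hoxd8, for which the transcript kept differed between the tables, was at 0.979 RPKM in CAFs against 5.51 in tumors. Hoxc10 and Hoxc8 were higher in CAFs of EO771 (means of 6.54 against 2.32 and 3.40 against 0.812 RPKM), and Hoxc10 and Hoxc6 in CAFs of LL2 (4.41 against 0.758 and 4.20 against 1.31). In MC38, Hoxb5 (7.18 against 1.35) and Hoxc6 (11.8 against 4.63) were higher in CAFs and Hoxd13 (4.64 against 7.93) was lower. In Pan02, Hoxa6 (9.21 against 3.21) and Hoxa5 (32.5 against 15.3) were higher in CAFs and Hoxb2 (1.35 against 6.54) was lower. Over the members at 1 RPKM in either, the median ratio of CAFs to tumors was 1.46 in EO771, 1.41 in MC38, 1.05 in LL2 and 0.914 in Pan02, whereas that of the 10 fibroblast markers was 7.88 in EO771, 2.36 in MC38, 4.53 in LL2 and 0.528 in Pan02. The median ratio of the Hox genes was thus below that of fibroblast markers in EO771, LL2 and MC38, and above it in Pan02. The genes taken as marks of cancer cells had ratios of 0.539 to 0.725 in EO771, 0.206 to 1.13 in LL2, 0.120 to 1.18 in MC38 and 0.0456 to 1.04 in Pan02.

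Hox proteins bind DNA together with cofactors of the TALE family, Pbx, Meis and Pknox, and several of these were called higher in Pan02. Of the 9 cofactor genes, 5 were called higher in Pan02 tumors and 4 in Pan02 CAFs, with Meis1 and Meis2 among them in both, against the 18.8% and 9.73% of all genes tested given above. Meis1 was at 34.9 to 44.7 RPKM in Pan02 tumors, with a log2 fold change of 3.43 ± 0.12 (SE), adjusted p = 2.13e-10, and at 55.4 to 61.5 RPKM in Pan02 CAFs, with one of 3.22 ± 0.10 (SE), adjusted p = 1.36e-06. In EO771, 5 were lower in tumors, Meis1 among them, and 1 was higher and 3 lower in CAFs. Of the 4 genes upstream of posterior Hox genes in the embryo (Cdx1, Cdx2, Cdx4 and Gdf11), 2 were tested, and Cdx2 was called higher in Pan02 tumors (5.29 to 10.03 RPKM) and Pan02 CAFs (6.74 to 8.55 RPKM) and in LL2 tumors (0.755 to 1.42 RPKM). In MC38, where the posterior Hox genes were on, Cdx2 was at 0 to 0.139 RPKM in tumors and 0 in both CAF libraries.

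Polycomb proteins keep Hox clusters silent and Trithorax proteins keep them active. All 24 Polycomb genes were tested in both fits, and no more than 3 were called higher and 3 lower in tumors of any model, with at most 4 higher and 5 lower in CAFs. Over all genes tested, the shares called were 7.92 to 19.6% per direction in tumors and 3.89 to 10.9% in CAFs, and these serve as the background of the lists that follow too. Ezh2 was among those lower in Pan02 tumors. Cbx2 was higher in Pan02 tumors, Pan02 CAFs and MC38 tumors, and lower in EO771 tumors and EO771 CAFs. Of the 13 Trithorax genes and activators, at most 1 was called in either direction in tumors of a model, and 3 (Kmt2a, Kmt2d and Men1) were lower in EO771 CAFs. Retinoic acid induces anterior Hox genes, and of the 16 genes of its pathway 15 were tested in tumors, with 9 higher in Pan02, 5 higher and 3 lower in EO771, and 1 higher and 6 lower in B16. In CAFs 14 were tested, with 4 higher and 3 lower in Pan02, 5 higher and 3 lower in EO771 and 1 higher and 2 lower in both LL2 and MC38.

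The noncoding RNAs of the clusters and the genes that flank them were read in the same fits. Of 16 noncoding RNAs, 6 were tested in tumors and 8 in CAFs, and all 6 were lower in EO771 tumors, the model with little HoxA. Hotairm1, which lies in HoxA, was at 1.18 to 1.79 RPKM in EO771, 4.06 to 7.17 in LL2, 9.2 to 11.4 in B16, 13.3 to 16.4 in MC38 and 18.9 to 23.9 in Pan02 tumors. Of 10 genes that flank the clusters, 6 were tested in tumors and 5 in CAFs, and 0 were called in either direction in any model (edgeR and limma, and likewise DESeq2 for tumors and edgeR on recovered reads for CAFs). At an unadjusted p under 0.05, 15 of the 30 comparisons in tumors and 11 of the 20 in CAFs differed, by at most 0.96 and 0.80 on the log2 scale.

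Other genes that mark position in the body wall and limb were counted in the same way. Of 20, 18 were tested in tumors and 16 in CAFs. In MC38 tumors, 10 were higher and 1 lower (background 11.2% and 8.23%), and in MC38 CAFs 4 were higher and 2 lower (background 10.9% and 9.87%). Pitx1, a hindlimb gene, was at 13.7 to 23.6 RPKM in MC38 tumors and 22.8 to 27.5 in MC38 CAFs, and at most 1.16 RPKM elsewhere. In B16 tumors, 3 were higher and 13 lower (background 13.1% and 19.6%), with Tbx4, a hindlimb and lung gene, at 22.95 to 29.3 RPKM. Tbx4 was also called higher in EO771 and LL2 tumors and in EO771 CAFs. In Pan02 tumors, 6 were higher and 3 lower (background 18.8% and 7.92%), with En1 at 11.9 to 16.4 RPKM. En1 was also called higher in MC38 tumors. In Pan02 CAFs, 3 were higher and 8 lower (background 9.73% and 8.41%), with En1 at 14.1 to 14.9 RPKM. In EO771, 4 were higher and 7 lower in tumors (background 9.71% and 13.7%) and 4 higher and 5 lower in CAFs (background 8.05% and 7.06%). In LL2 the counts were 6 and 5 in tumors (background 8.51% and 8.3%) and 4 and 5 in CAFs (background 3.89% and 5.13%). Tbx15 was highest in EO771, at 15.04 to 18.3 RPKM in tumors and 21.3 to 22.8 in CAFs.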

How the data were processed

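The authors' tumor table holds expected counts for each RefSeq transcript, whole or in steps of 0.5, made by STAR 2.5.0c alignment to mm10 and HOMER counting over exons on both strands, and not normalized. The deposited CAF table holds RPKM from the same counting. Of the tables' columns, 5 belong to samples of another model and were not used. Of symbols with several transcripts (6 members), the one with the highest average in each table was kept, and 2 transcripts naming no gene were left out. For 3 members, Hoxb3 and Hoxd8 among them, the transcript kept differed between the tumor and CAF tables.

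In edgeR 4.0.16, tumor counts were rounded up, passed through filterByExpr and TMM, and fitted with 1 term per model (15732 genes). In limma 3.58.1, CAF values were put on the log2(RPKM + 1) scale (trended variance, at least 1 RPKM in at least 2 libraries, 13598 genes). P-values were adjusted by Benjamini-Hochberg over all genes tested. CAF columns name a model but no replicate number, so CAF libraries are numbered here only as names. CAF reads were recovered from RPKM in steps of 0.5, and came out whole within 0.15 of a step for 99.95 to 100.0% of values precise enough to tell. Replicates differed by more than sampling noise, so none was merged.

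Alternatives were DESeq2 1.42.0, total-count scaling, no filter, the longest transcript per symbol, a replicate block, another pseudocount (0.1), a median of ratios, edgeR on recovered reads, other detection levels and leaving out each library. The fits were tested on simulated data. Positions are mm10, exon overlaps GENCODE vM21 and promoters RefSeq GRCm38.p6. Given sample by sample were, for each model, the 3 called members with the largest rise and the 2 with the largest fall, members at 1 RPKM in every tumor or CAF model, and the 2 members that differed most each way between CAFs and tumors. The values of 1 member and 1 cofactor gene are not reported here. Members, lists and tests were chosen with earlier results of these data known. Python 3.11.15 and R 4.3.3 were used.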

Additional observations from a re-analysis of the deposited data

Results flagged for a closer look

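For 4 members, every CAF library lay above every tumor in one model and below every tumor in another. The share of all genes that did so was not counted. The difference between the models was not tested, since tumors and CAFs were normalized apart. On the log2(RPKM + 1) scale, Hoxb2 in CAFs minus tumors was 1.03 in MC38 and -1.71 in Pan02, Hoxb4 0.68 in MC38 and -0.84 in Pan02, Hoxb7 1.11 in MC38 and -1.13 in Pan02, and Hoxc8 1.30 in EO771 and -1.40 in Pan02. Pan02 was the model below in all 4 cases. There the fibroblast list was lower in CAFs (2485 to 4085 RPKM summed) than in tumors (8793 to 9655 RPKM summed), and its part in these differences was not tested.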

How the results depend on the processing

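No single called change turned its direction under any alternative. Of 2100 refitted values for calls in tumors, 57 missed the thresholds, and of 525 in CAFs, 10 did. The 525 leave out refits in which a called member no longer passed the filter. Hoxb13, Hoxc5 and Hoxd13 without MC38 CAF library 2 are among these. Calls lost in tumors were mostly those of Hoxa6, Hoxa13 and Hoxc10 in LL2, Hoxd4 in MC38 and Hoxb13 in Pan02. The calls of Hoxa13 in LL2 and Hoxb13 in Pan02 were also lost with DESeq2. Hoxa13 and Hoxb13 passed the filter through MC38 tumors alone, so their calls are not read as results. With total-count scaling, members lower in MC38 tumors numbered 1 in place of 3. With a pseudocount of 0.1, members lower numbered 14 in EO771, 4 in LL2 and 14 in Pan02 CAFs. Members higher in MC38 CAFs then numbered 17. With recovered reads in edgeR 3 were lower in LL2 and 20 higher in MC38 CAFs. For these alternatives the shares of all genes called were not counted. Members detected at 0.5 RPKM were 20 in B16 and 18 in EO771 tumors, and at 2 RPKM 8 in B16, 6 in EO771 and 16 in MC38 tumors and 10 in EO771 CAFs. Pearson's r in place of rho was 0.924 in LL2.

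Leaving out 1 library gave 1 to 2 members higher in EO771 CAFs, 2 to 7 higher and 1 to 2 lower in LL2 CAFs. The range of rho, chosen for repeats after seeing the data, was 0.869 to 0.928 in EO771, 0.881 to 0.913 in LL2 and 0.856 to 0.886 in MC38. Pan02 gave 0.873 to 0.920. Whichever library was left out, the CAFs of all 4 models stayed most like their own tumor. Pairs of 1 CAF library and 1 tumor spread more widely. Their rho ran from 0.7685 to 0.915 for Pan02, 0.825 to 0.877 for MC38, 0.868 to 0.926 for LL2 and 0.817 to 0.929 for EO771. The lowest Pan02 pair lay inside the range of 0.214 to 0.781 given above for groups of different models. Single pairs of different models are not given here. The tumors' replicate numbers do not pair them: over 30 same-number pairs, correlations of deviations ran from -0.17 to 0.23. With the replicate number as a block, 31 members differed among tumor models, 8 were higher in B16 and no count moved by over 1.5 times. No paired analysis was possible for CAFs because the columns carry no replicate number. Depth limits what can be said of members at or below 0.385 RPKM.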
